A study of Mus musculus with 72 samples.

Results

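Pet1 neurons of the mouse dorsal raphe nucleus are the brainstem serotonin neurons marked by the transcription factor Pet1 (gene Fev). The cells described here are 100 of the 2350 Pet1 neurons in a 10X single-cell table. They were chosen by the mean level of Maf, Nos1, Wnt5a, Tpbg, Cacna2d3 and Crh: UMI counts were scaled to 10000 per cell, log-transformed and turned into a z-score for each gene over all cells, and the 100 cells with the highest mean z over the 6 genes were taken. These 6 genes selected the cells, so their levels are given as a description only. Every other gene was measured in the cells so selected, and its ratio to the other 2250 cells is likewise a description of the chosen cells. The study asked how dorsal raphe Pet1 neurons divide into subtypes by their transcriptomes. The 10X table joins 2 runs on full dorsal raphe tissue. The mice of run_1 carried Pet1::Flpe+/- and hM3Dq+/+ at a mean age of 65.5 days, without Cre, so that Pet1 neurons were labelled with EGFP. Those of run_2 carried En1::cre+/-, Pet1::Flpe+/- and RC::FrePe+/- at a mean age of 59 days, so that EGFP marked Pet1 neurons of the En1 lineage. Tissue of several mice was pooled in each run. A further 70 Pet1 neurons were picked by hand into 8 labelled groups, each the intersection of Pet1::Flpe with Slc6a4 (Sert), P2ry1, Npy2r or Crh Cre and a part of the nucleus. Their animals were 63 to 90 days old in the Sert groups (63 days in Sert_Pet1_cDR), 62 to 74 days in P2ry1_Pet1_cDR, 77 to 87 days in the Npy2r groups and 83 to 119 days in Crh_Pet1_rDR, so that ages overlapped between some Cre lines and differed between others. The part of age in the values of these groups was not tested. Crh-cre is a BAC transgene, and Cre labels cells that used its driver at any earlier time.

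Serotonin neurons make serotonin from tryptophan through tryptophan hydroxylase (Tph2) and aromatic amino acid decarboxylase (Ddc), load it into vesicles with Slc18a2 and take it back up with Slc6a4. Many of them carry further signals. Nos1 encodes the neuronal enzyme that makes nitric oxide, a diffusible messenger that activates soluble guanylyl cyclase and so raises cyclic GMP. Crh encodes corticotropin-releasing factor, the peptide that starts the hormonal stress response and also acts as a neuromodulator. Maf is a large basic leucine zipper transcription factor, Wnt5a a secreted Wnt ligand, Tpbg a membrane glycoprotein that acts on Wnt signalling, and Cacna2d3 an auxiliary calcium channel subunit.

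The highest mean z was 3.41 and the median of the chosen cells was 2.22, against -0.24 in the other cells. The score had no gap at the limit. The last 2 chosen cells had a mean z of 1.708 and 1.707, and the next 2 cells had 1.70 and 1.67. Within 0.1 of the limit lay 12 chosen cells and 9 others. The chosen cells are therefore the upper range of a continuous score and not a separate type by this measure.

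Maf was found in all 100 chosen cells, at a 10th percentile of 111 CPM (UMIs of a gene per 1000000 UMIs of the cell), a median of 240 CPM and a 90th percentile of 405 CPM, and its median over the other cells was 0. Nos1 had a UMI in 94 chosen cells, with 10th, 50th and 90th percentiles of 29.7, 184 and 407 CPM. Wnt5a was present in all 100 and Cacna2d3 in 88. Crh had a UMI in 75 of the 100 chosen cells, with a median of 53.8 CPM, and Tpbg in 68. All 6 genes were detected together in 39 chosen cells, 5 of them in 47 and 4 in 14, while 6 of the 2250 other cells had a UMI of every one. The choice fixes these levels and says nothing on whether the cells form a type, and 25 of them carried no Crh UMI and 6 no Nos1 UMI.

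The chosen cells held 6171867 UMIs, with a median of 62098.5 per cell (range 24337 to 99372), against 59612 in the other cells (12320 to 134079). The 2 barcode endings of the table, called barcode sets 1 and 2 here because nothing states which run each stands for, gave 29 of 869 and 71 of 1481 cells. That was 3.34% (95% Clopper-Pearson interval 2.25 to 4.76) of set 1 and 4.79% (3.76 to 6.01) of set 2. No barcode was shared between the sets. Run, genotype and pooled animals cannot be told apart from the barcode set. With cells of pooled animals and no map from cells to animals, the table counts as 1 sample. Levels below are therefore sums of UMIs over cells in CPM, and all intervals are 95% intervals. Those of levels and ratios cover counting error only. Those of shares treat cells, or pairs of gene and cell, as independent draws. Median mitochondrial shares were 7.23% in the chosen and 6.38% in the other cells, and ribosomal protein genes took 9.23% and 9.71%. Their part in the ratios below was not tested. Scrublet called 14 of all cells doublets (0.596%, at an expected rate of 5%) and none of the chosen, so few calls that doublets among the chosen cells remain possible.

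The serotonin genes were present throughout. Tph2, Ddc, Slc6a4, Slc18a2 and Fev each had UMIs in all 100 chosen cells and in at least 98.2% of the others. Tph2 was at 3086 CPM (3042 to 3130) against 2828 CPM in the other cells, and Slc6a4 at 2540 against 2212 CPM. Fev itself was lower, at 248 against 340 CPM (log2 ratio -0.45, -0.53 to -0.38), as were the transcription factors Gata3 (-0.49), Gata2 (-0.29) and En1 (-0.25), and Slc18a2 (-0.21). Of the 20 serotonin identity genes compared, none was 2-fold higher or lower, with a median log2 ratio of -0.09. The median over all 10478 genes compared, those with at least 500 UMIs over all cells and without the 6 choosing genes, was -0.04. The widest departure was Gch1, which encodes the enzyme that starts synthesis of the tetrahydrobiopterin cofactor, at 280 against 495 CPM (log2 ratio -0.82, interval -0.89 to -0.75). Gchfr, its feedback regulator, was at 1757 against 1349 CPM (0.38, 0.35 to 0.41), and the autoreceptor gene Htr1a at 116 against 88.1 CPM.

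Markers of other cells were summed over each list, after the authors had removed cells by glial markers. The oligodendrocyte precursor list (3 of 4 genes in the table) and Slc17a6 were at 0 in the chosen cells, and the dopamine neuron list summed to 0.32 CPM against 0.90 CPM in the other cells. Astrocyte markers summed to a median of 238 CPM per chosen cell (range 61.6 to 651) and 363 CPM per other cell (0 to 1456), of which Aldoc, a glycolytic enzyme, held most, at 227 CPM over the chosen and 402 CPM over the other cells. Oligodendrocyte markers summed to a median of 26.7 CPM (0 to 84.6) and 27.1 CPM (0 to 2074). Microglial markers summed to 3.40 CPM over the chosen cells and 3.55 CPM over the others, with Cx3cr1 at 0.

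Clustering of all 2350 cells gave 14 clusters, numbered by their best match to lists of fixed marker genes. Each cluster scored highest for its own markers, which follows largely from this numbering and is no check of it. Cluster 9, whose markers are the 6 choosing genes, held 91 of the 100 chosen cells (83.6% to 95.8%). The chosen cells made up 57.2% (49.2 to 65.0) of its 159 cells. Both shares describe cells taken by rank and not drawn at random, so their intervals refer to no wider set of cells. When the 6 genes were taken out of the variable genes before clustering, the corresponding cluster held 155 cells, all of them members of the first cluster 9, and 89 of the chosen cells. Of the other 68 cells in cluster 9, 36 were among the next 100 by score and the lowest stood at rank 835.

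**Figure D1:**
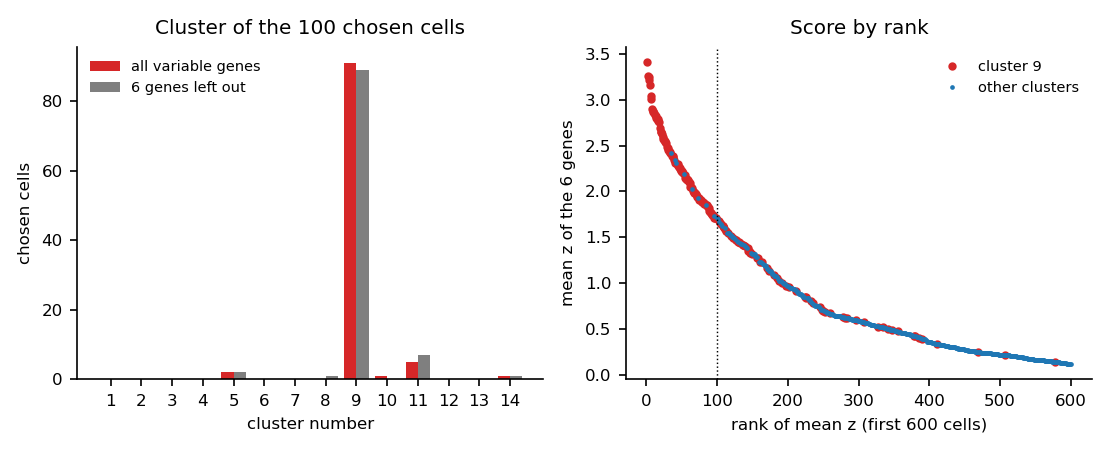
Left, number of the 100 chosen cells in each of the 14 clusters, with all variable genes (red) and with the 6 choosing genes left out (grey). Right, mean z of the 6 genes against rank for the highest-scoring cells, red for cluster 9 and blue for all other clusters, the dotted line at the limit of 100 cells. Cluster 9 holds 91 chosen cells, or 89 without the 6 genes, and the score runs through the limit without a step.

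In principal components computed without the 6 genes, a mean of 66.8% of the 20 nearest neighbours of a chosen cell were chosen cells (median 75%, range 0 to 100%), against 19.8% for the next 100 cells by score and 1.21% over all other cells. At least 10 of the 20 neighbours were chosen for 78 chosen cells, and none was for 2. Within barcode set 1 the mean was 45.5%, where 3.34% of cells were chosen, and within set 2 it was 70.4%, where 4.79% were.

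The 9 chosen cells outside cluster 9 were spread over cluster 11 (5 cells), cluster 5 (2), cluster 10 (1) and cluster 14 (1). The cell of rank 35, in cluster 11, had 24 UMIs of Maf, 25 of Nos1, 11 of Wnt5a and 11 of Crh. The cell of rank 40, also in cluster 11, had 33 of Crh and 16 of Nos1. The 2 cells in cluster 5 had no Tpbg, with 1 and 2 UMIs of Maf, and reached the score with 11 and 14 UMIs of Crh and 6 and 19 of Nos1. The cell of rank 100, in cluster 14, had neither Nos1 nor Crh and held 11 UMIs of Tpbg.

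Among the genes not used for the choice, 148 of 10478 (1.41%) were at least 2-fold higher in the chosen cells and 309 (2.95%) at least 2-fold lower. Past 4-fold were 22 and 105 genes. Of the 148, 146 were higher in both barcode sets, and 107 past 2-fold in both. Of the 309, 308 were lower in both sets and 238 past 2-fold in both. With only the 91 chosen cells of cluster 9 the counts were 157 and 333.

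Among the genes compared that had at least 100 UMIs over the chosen cells and were detected in at least 25 of them, Mef2c had the highest ratio. It encodes a MADS-box transcription factor of activity-dependent gene expression and was at 36.3 CPM (31.7 to 41.4) in the chosen cells, 9.03 CPM in the next 100 cells by score and 3.33 CPM over the 2250 cells not chosen. This gave a log2 ratio of 3.45 (3.21 to 3.68), with 2.99 within barcode set 1 and 3.47 within set 2. Mef2c was nonetheless uneven, with a UMI in 67 chosen cells and a 90th percentile of 113 CPM. Cacng5, an auxiliary subunit of AMPA-type glutamate receptors of the TARP family, was at 87.3 CPM against 8.22 CPM (log2 ratio 3.41, 3.26 to 3.56). It had UMIs in 92 of 100 chosen cells, with 10th, 50th and 90th percentiles of 14.8, 79.9 and 166 CPM, and its median in the other cells was 0. Cacng5 therefore marked nearly every chosen cell. Its next highest level among clusters was 28.2 CPM in cluster 12.

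Pex5l, also known as TRIP8b, an auxiliary ion channel subunit, was at 26.6 against 5.36 CPM (log2 ratio 2.31, 2.05 to 2.56). Pex5l had a UMI in 65 chosen cells.

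Ntn1, the secreted guidance cue netrin-1, was at 45.7 against 6.25 CPM (log2 ratio 2.87, 2.67 to 3.07) and had UMIs in 82 chosen cells. Ntng1, a membrane-anchored netrin-G that binds a postsynaptic partner, was at 124 against 24.8 CPM (2.32) and was found in 98 and in 29.3% of others. Nxph1, a secreted neurexophilin that binds neurexins, was at 283 against 55.3 CPM (2.36, 2.28 to 2.43) in all 100 chosen cells and 66.9% of others. Its 10th percentile, 93.8 CPM, lay above the median of the other cells, 27.0 CPM. Pcdh15, a protocadherin, was at 116 against 26.7 CPM (2.12) in 99 chosen cells and 50.3% of others.

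Signalling genes were present as well. Ramp3, a partner protein that sets the ligand choice of calcitonin-type receptors, was at 44.2 against 7.00 CPM (log2 ratio 2.66, 2.46 to 2.86). Adcyap1, which encodes the peptide PACAP, was at 30.3 against 5.98 CPM (2.34, 2.10 to 2.57), with UMIs in 60 chosen cells. Esr1, oestrogen receptor alpha, was at 40.0 against 9.14 CPM (2.13, 1.93 to 2.33) in 79 cells. Its ratio was 1.66 in barcode set 1 and 2.34 in set 2. Synm, the intermediate filament protein synemin, was at 51.8 against 6.62 CPM (2.97), and Golm1, a Golgi membrane protein, at 19.9 against 2.97 CPM (2.75). Tmem132c, Etl4, 2900055J20Rik, Galnt18, Tmem108, Sowahc and Popdc3 were also among the 20, with log2 ratios from 2.01 to 3.35. All 20 were higher in both barcode sets.

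**Figure D2:**
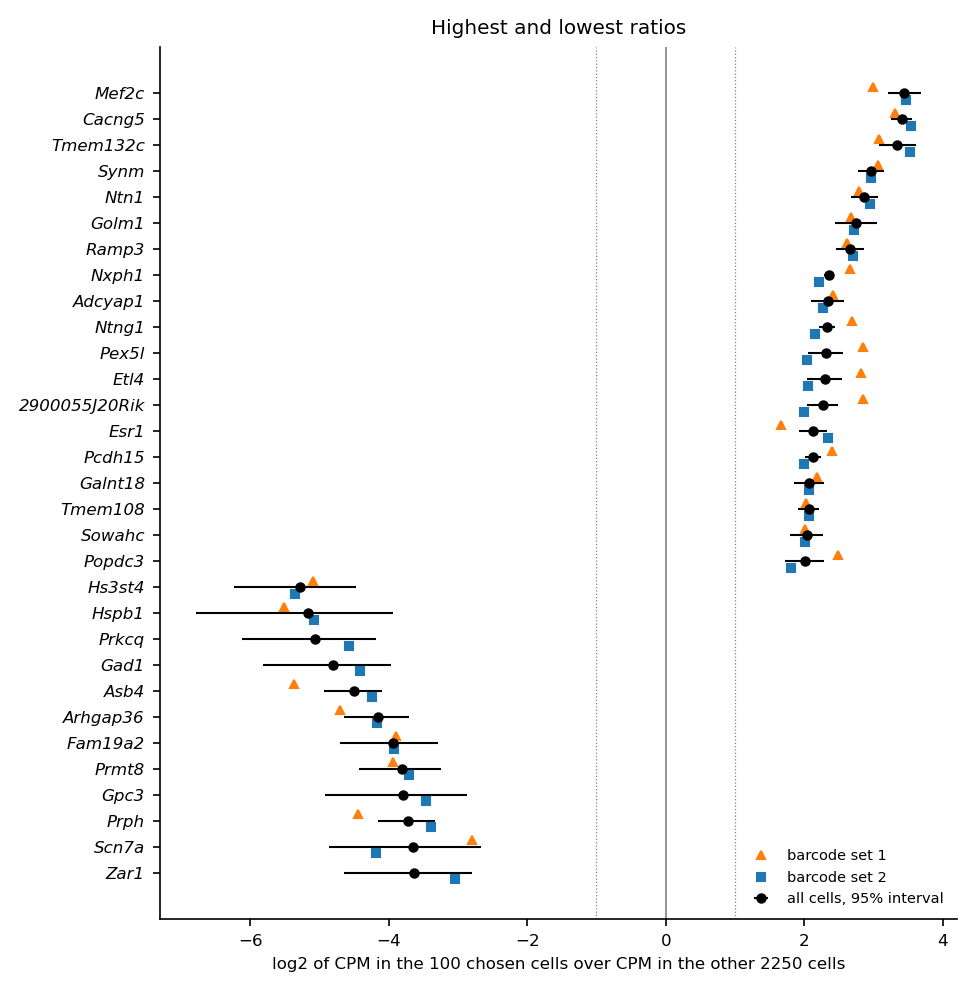
Log2 ratio of CPM in the 100 chosen cells over CPM in the other 2250 cells (x axis) for 19 of the 20 highest and the 12 lowest genes (y axis). Black points with bars are the ratio over all cells with its 95% counting interval, orange triangles barcode set 1 and blue squares barcode set 2, dotted lines 2-fold. Mef2c leads at 3.45 and Hs3st4 is lowest at -5.28, and the triangles and squares lie on the same side of 0 as the black point for every gene (Prkcq, Gad1, Gpc3 and Zar1 had no UMI in set 1 and have no triangle).

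After each cell was thinned to 20000 UMIs, which left out 53 other cells and no chosen cell, Cacng5 was detected in 78.0% of chosen and 12.2% of other cells. The lowest share among the clusters was 0.915%, in cluster 2. Unthinned, it had a UMI in 92 of 100 chosen cells and in 23.2% of others. For Mef2c the thinned shares were 41.0% and 6.42%, with a lowest share of 0.80% in cluster 11, and for Ntn1 54.0% and 10.6%, with 0 in cluster 12.

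**Figure D3:**
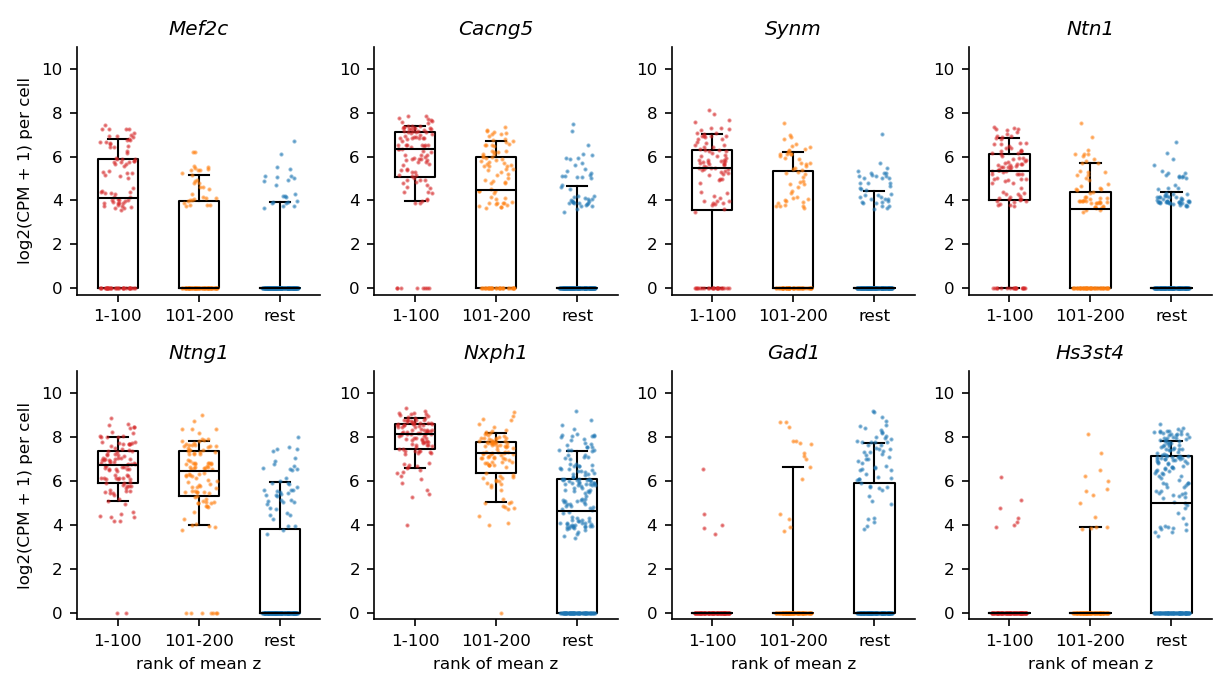
Log2(CPM + 1) per cell of 6 genes with high and 2 with low ratios, for the chosen cells (left), the next 100 cells by mean z (middle) and the rest (right). Boxes span quartiles with the median, whiskers the 10th to 90th percentile, and dots are single cells (200 drawn at random for the rest). For Ntng1 the median over cells is 107 CPM in the chosen cells, and for Mef2c, Cacng5, Synm and Ntn1 the median over the 2250 cells not chosen is 0, while nearly all chosen cells are at 0 for Gad1 and Hs3st4.

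To show sequence next to these genes, promoter windows from RefSeq (build GRCm38.p6, 250 bases before to 50 after the start of transcription) were searched on both strands. The motif was TGCTGA, a half-site of the MAF recognition element (reverse complement TCAGCA), because Maf is among the choosing genes. A window was held for 14 of the 20 highest genes, and 6 of these 14 had a match in at least 1 of their windows, as did 2 of 11 of the 12 lowest genes and 21.7% of all 27018 genes. Counted by window, 7 of 22 windows of the highest genes matched (31.8%), against 19.5% of all 32841 windows. The motif was picked with the ratios known, and a match is a run of letters and not evidence of binding. The first 3 of the highest genes with a match are printed 5′ to 3′ on the strand of the gene, with matches in capitals. They lie at chr13:83573357-83573656 (+ strand, Mef2c, 1 of its 3 windows), chr5:127241576-127241875 (+ strand, Tmem132c) and chr17:93198767-93199066 (+ strand, Adcyap1, where both of its 2 windows match).
Mef2c: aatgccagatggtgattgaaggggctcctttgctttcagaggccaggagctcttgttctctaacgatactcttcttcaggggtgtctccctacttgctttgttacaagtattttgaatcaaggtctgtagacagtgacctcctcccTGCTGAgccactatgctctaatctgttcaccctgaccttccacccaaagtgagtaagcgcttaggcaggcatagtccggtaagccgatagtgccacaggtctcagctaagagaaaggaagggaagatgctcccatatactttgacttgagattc
Tmem132c: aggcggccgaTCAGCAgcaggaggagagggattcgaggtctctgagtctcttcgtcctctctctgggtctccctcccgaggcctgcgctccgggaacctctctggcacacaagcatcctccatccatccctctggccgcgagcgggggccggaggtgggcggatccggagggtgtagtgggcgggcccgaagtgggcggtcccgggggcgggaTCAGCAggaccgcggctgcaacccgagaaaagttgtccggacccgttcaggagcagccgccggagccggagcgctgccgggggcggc
Adcyap1: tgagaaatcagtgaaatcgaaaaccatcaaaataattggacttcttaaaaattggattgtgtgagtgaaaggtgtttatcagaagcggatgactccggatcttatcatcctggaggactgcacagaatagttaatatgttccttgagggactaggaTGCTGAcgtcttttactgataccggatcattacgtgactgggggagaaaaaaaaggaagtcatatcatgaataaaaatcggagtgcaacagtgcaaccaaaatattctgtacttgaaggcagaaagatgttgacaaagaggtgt

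The 12 lowest ratios were taken among genes with a UMI in at least 25% of the other cells and at least 100 UMIs expected in the chosen cells, so rarer genes with lower ratios, such as Zeb2 (-5.87) and Crhbp (-5.46), are not among them. Hs3st4, a heparan sulfate 3-O-sulfotransferase, had 12 UMIs in 7 of the chosen cells, or 1.94 CPM (1.00 to 3.40) against 75.5 CPM (log2 ratio -5.28, -6.23 to -4.47). Hspb1, a small heat shock protein, had 5 UMIs, 0.81 against 29.0 CPM (-5.16, -6.79 to -3.94). Gad1, the enzyme that makes GABA from glutamate, had 11 UMIs in 5 chosen cells against 31.2% of other cells with a UMI, 1.78 against 50.0 CPM (-4.81, -5.81 to -3.97). The Gad1 ratio depended on which cells were chosen: it was -1.98 with 200 cells chosen, -3.10 with the score without Cacna2d3 and -3.30 with the score on thinned cells. Gad1, Prkcq, Gpc3 and Zar1 had no UMI in the 29 chosen cells of barcode set 1, which allows a level of up to 1.76 CPM. Prkcq encodes a protein kinase C and Gpc3 a glypican. Asb4, Arhgap36, Fam19a2, Prmt8, Prph (the intermediate filament peripherin), Scn7a and Zar1 had log2 ratios from -4.50 to -3.64. These ratios also moved with the choice of cells, and over the alternatives Asb4 ran from -6.09 to -3.38, Zar1 from -5.39 to -2.81 and Fam19a2 from -4.47 to -2.70. Hs3st4 ran from -6.22 to -4.33. These genes were not uniformly high elsewhere: the level in the chosen cells was below that of the other cells of every cluster for 3 of the 12 only.

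The lists that follow stand beside the 1.41% of all genes compared that were 2-fold higher and the 2.95% that were 2-fold lower, and a single gene past 2-fold in a list is not read as a result about that list. Of the 5 fast transmitter genes compared, 1 was 2-fold higher and 3 were 2-fold lower. Slc17a8, the vesicular glutamate transporter VGLUT3 that serotonin neurons use to release glutamate, was at 399 CPM against 147 CPM (log2 ratio 1.44) and had UMIs in 98 chosen cells and 62.0% of others. Gad2 was at 44.7 against 117 CPM (-1.38), with -2.50 within barcode set 1 and -1.24 within set 2. Gad2 had UMIs in 35 of the 100 chosen cells.

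In the nitric oxide and cyclic GMP list, Nos1 itself was a choosing gene. Of the 23 others compared, none was 2-fold higher and 6 were 2-fold lower, with a median of -0.48. Gucy1a3, a subunit of the soluble guanylyl cyclase that nitric oxide activates, was at 66.9 against 173 CPM (log2 ratio -1.37, -1.51 to -1.23). Its partner subunit Gucy1b3 was at 94.8 against 129 CPM (-0.45). Among cyclic nucleotide phosphodiesterases, Pde1a was at 45.7 against 155 CPM (-1.76, -1.94 to -1.59) and Pde1b at 10.4 against 28.9 CPM (-1.48). Pde5a had no UMI in the chosen cells against 5.01 CPM, at least 10.3-fold lower at a floor of 3 UMIs over the chosen cells. The cyclic GMP-dependent kinases Prkg1 (16 UMIs, 2.59 against 5.20 CPM) and Prkg2 (3 UMIs, 0.49 against 4.22 CPM, log2 ratio -3.12, -5.40 to -1.56) were also lower. Prkg1 was not past 2-fold within barcode set 2 (-0.80). Gucy1a2 (-0.54), Pde2a (-0.48) and Pde9a (-0.80) were lower by less than 2-fold, and Pde1c, under the minimum of 500 UMIs, was at 3.40 against 1.97 CPM (0.79, 0.07 to 1.43). None of the genes that bind the enzyme, feed it or make its cofactor was past 2-fold, and they lay on both sides of 0. Pts (0.37), Spr (0.20), Nos1ap (0.11), Ddah1 (0.07), Slc7a1 (0.03) and Asl (0.02) had log2 ratios above 0, and Dynll1 (-0.04), Nosip (-0.14), Dlg4 (-0.22), Qdpr (-0.35), Ass1 (-0.49), Ddah2 (-0.82, -1.14 to -0.51) and Gch1 (-0.82) below.

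In the CRF and stress hormone receptor list, 1 of 5 genes compared was 2-fold higher and 1 lower (median -0.12). Crhr2, a receptor for CRF family peptides, was at 28.5 CPM (176 UMIs in 68 chosen cells) against 10.3 CPM (log2 ratio 1.47, 1.24 to 1.70), and was higher still in cluster 10, at 34.7 CPM. Crhbp, the CRF binding protein, had 1 UMI, 0.16 against 7.15 CPM (-5.46, -10.8 to -2.98). Nr3c1, the glucocorticoid receptor, was at 110 against 196 CPM (-0.83).

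Among 11 neuropeptide genes compared, Adcyap1 was 2-fold higher and Trh, Penk, Sst, Npb, Nts and Cxcl14 were 2-fold lower, with a median of -1.28. Trh, thyrotropin-releasing hormone, had 5 UMIs, 0.81 against 15.3 CPM (-4.24), and Sst, somatostatin, 18 UMIs in 4 chosen cells, 2.92 against 29.3 CPM (-3.33, with -1.87 in barcode set 1 and -5.89 in set 2). Within set 1, Nts (-0.26), Npb (-0.68) and Cxcl14 (-0.69) were not past 2-fold, while set 2 gave -5.87, -1.70 and -1.63. The level of the other cells rested on single clusters for several of these genes, with detection close to that of the chosen cells. Nts was in 3 chosen cells and 3.29% of others, with 333 CPM in cluster 13. Penk was in 3 and 4.22%, with 138 CPM in cluster 13, and Cxcl14 in 30 and 33.8%, with 267 CPM in cluster 14. Pdyn, prodynorphin, was at 25.3 against 49.9 CPM (-0.98) and was found in 51 chosen cells. Of 12 genes compared for peptide processing and dense core vesicles, 0 were 2-fold higher and 1 was lower, with a median of -0.05. That 1 was Pam, the enzyme that amidates peptides, at 213 against 500 CPM (-1.23, -1.31 to -1.15). Cadps2, a priming factor for dense core vesicles, fell under the minimum of 500 UMIs and so outside these counts, at 14.6 against 1.67 CPM (3.13, 2.76 to 3.49) with UMIs in 47 chosen cells.

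Of 21 subtype transcription factors compared, 11 were 2-fold lower and 1 higher (median -1.36). The list holds factors that the paper reports as enriched in other clusters, so low values here follow in part from its make-up. For some, the level of the other cells rested largely on 1 cluster. Zeb2 was in 6.84% of other cells, with 230 CPM in cluster 12, and Nfib in 11.6%, with 90.7 CPM in cluster 13. Others were more widely found, with Pax5 in 59.1% and Sox14 in 33.2% of other cells. Zeb2 (1 UMI), Sox14 (4 UMIs), Nfib (2 UMIs) and Pou3f1 (5 UMIs) were at 0.81 CPM or less. Pax5 was at 10.4 against 44.6 CPM (log2 ratio -2.10). Nr2f2, the nuclear receptor COUP-TFII, was at 64.0 CPM (395 UMIs) against 17.8 CPM (1.85, 1.69 to 2.00), but in only 64 of the 100 chosen cells. Among 7 genes for partners of MAF, Bach2 was 2-fold higher at 11.7 against 5.39 CPM (1.11, 0.74 to 1.47), none was 2-fold lower, and the median was 0.35. In the Wnt list, Rspo3 (83.8 against 36.5 CPM, 1.20) and Rspo1 (18.0 against 7.46 CPM, 1.27), secreted enhancers of Wnt signalling, were 2-fold higher and Wnt3 and Wnt4 lower among 17 genes compared, with a median of 0.10. Rspo1 (0.80) and Wnt3 (-0.78) were not past 2-fold within barcode set 1. Below the minimum of 500 UMIs lay Sfrp1, a secreted Wnt-binding protein, at 13.8 against 0.43 CPM (5.02, 4.51 to 5.53, with 5.46 in set 1 and 4.75 in set 2) from 85 UMIs in 38 chosen cells, which is a higher ratio than that of Mef2c. Ror2, a receptor for Wnt5a, was likewise below it at 5.83 against 1.32 CPM (2.14, 1.58 to 2.67). Cadps2, Sfrp1 and Ror2 were added after their values were seen.

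Excitability genes were divided into lists of calcium channels, other cation channels and ionotropic receptors, with the most genes past 2-fold in the last. Of 19 voltage-gated calcium channel genes, Cacng5 was 2-fold higher (although its product acts on AMPA receptors) and Cacna1h, a T-type channel, lower (5.51 against 11.4 CPM, -1.05), with a median of 0.00. Of 43 potassium, sodium and related cation channel genes, 1 was 2-fold higher, and Kcnh7, Kcnj6 and Kcnt2 were lower (median 0.08). Kcnc1, a fast delayed rectifier, was at 260 against 132 CPM (0.98, 0.91 to 1.06) and had a UMI in 98.7% of the other cells as in all 100 chosen cells. Among 29 ionotropic receptor genes, 2 were 2-fold higher and 7 lower (median -0.12). The NMDA receptor subunit Grin2a was at 100 against 33.2 CPM (1.60, 1.47 to 1.72) in all 100 chosen cells and 63.0% of others, and the GABA-A subunit Gabrg3 at 77.3 against 26.4 CPM (1.55, 1.41 to 1.69) in 97 and 43.5%. The lower ones included the GABA-A subunits Gabra4, Gabre and Gabrq, the AMPA subunits Gria1 (13.4 against 36.7 CPM, -1.45) and Gria3, and the glycine receptor Glra1.

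Among 23 G protein-coupled receptor genes, Grm8, a presynaptic metabotropic glutamate receptor, was 2-fold higher at 32.2 against 9.24 CPM (log2 ratio 1.80, 1.58 to 2.02) and 8 were lower (median -0.33). The lower ones included the orexin receptor Hcrtr1 (17.5 against 69.5 CPM, -1.99), the serotonin receptor Htr2c (6 UMIs, -2.91), the neuropeptide Y receptor Npy2r (5.83 against 20.8 CPM, -1.84) and P2ry1 (12 UMIs, -1.20). Rxfp1, a relaxin receptor, had no UMI against 5.40 CPM, at least 11.1-fold lower. Npy2r and P2ry1 are the genes that drove Cre in groups of hand-picked cells.

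Axon guidance held 8 of 39 genes 2-fold higher and 6 lower, with a median of -0.03. The list was chosen with earlier results of these cells known, and its count is not independent evidence. Besides Ntn1 and Ntng1 the higher genes were the ephrin receptors Epha5 (218 against 104 CPM, 1.06), Epha6 (1.38) and Epha10 (1.15), the semaphorin Sema6d (119 against 39.2 CPM, 1.60), its receptor family member Plxna4 (133 against 59.4 CPM, 1.17) and the repellent Slit2 (135 against 53.1 CPM, 1.34). The lower ones were Epha3, Ephb1, Sema3c, Sema6a, Nrp1 and Unc5c, the last a netrin receptor at 8.91 against 18.2 CPM (-1.03). Of 63 cell adhesion and synaptic organizer genes 4 were higher (Cdh7, Pcdh15, Cntn4, Cntnap4) and 12 lower (median 0.05). Cntn4, a contactin, was at 48.6 against 16.3 CPM (1.58), and Cdh13 at 75.7 against 289 CPM (-1.93).

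Calcium-binding proteins gave 0 of 18 genes higher and 4 lower (median -0.21). Calb2, calretinin, was at 18.5 against 68.2 CPM (-1.88), and Calb1, calbindin, at 178 against 96.1 CPM (0.89, 0.80 to 0.98). Of 19 heparan sulfate genes 0 were higher and 6 lower (Hs3st1, Hs3st4, Sulf2, Gpc3, Gpc5 and Gpc6, median -0.11). Immediate early genes, which can follow both activity in life and dissociation, gave 1 of 11 higher (Nr4a1, 11.8 against 5.32 CPM, 1.15) and 0 lower, with a median of 0.30, and Fos was at 140 against 92.9 CPM (0.59, 0.49 to 0.69). The part of dissociation in these levels was not tested. Of the 25 list genes at least 2-fold higher, 13 were at a higher level in the other cells of some cluster than in the chosen cells. Among these were Slc17a8 (496 CPM in cluster 11), Nr2f2 (135 CPM in cluster 12), Rspo3 (199.3 CPM in cluster 11), Rspo1 (27.1 CPM in cluster 5), Epha5 (383 CPM in cluster 13), Epha6 (33.0 CPM in cluster 12), Slit2 (177 CPM in cluster 14), Plxna4 (156 CPM in cluster 9) and Nr4a1 (16.4 CPM in cluster 9). Over all lists, 18 of the 102 genes past 2-fold were not past it within 1 of the barcode sets. Besides those given above these were Cacna1h, Gabra4, P2ry1, Epha5, Unc5c and Hs3st1 in set 2, with log2 ratios of -0.93, -0.997, -0.77, 0.99, -0.98 and -0.996, and Ldb2, Hrh1, Pcdh20, Tenm4, Vsnl1 and Sulf2 in set 1, with -0.56, -0.88, -0.34, -0.61, -0.97 and -0.30.

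In components computed without the 6 genes, the cells nearest to the chosen ones, after the rest of cluster 9 (distance between mean positions 11.7), were those of clusters 10 (18.4), 11 (18.8) and 7 (18.8), and the farthest was cluster 13 (35.9). Against the other cells of cluster 10, 198 genes (1.89%) were at least 2-fold higher in the chosen cells and 162 (1.55%) lower. Against cluster 11 the counts were 229 (2.19%) and 164 (1.57%), and against cluster 7 they were 260 (2.48%) and 189 (1.8%). The level of each of the 20 highest genes was above that of these 3 clusters, and 13 were past 2-fold in each. The 20 were ranked on their ratio to all other cells, these clusters among them, so part of this follows from the ranking. For Ntng1 against cluster 11 the interval of the ratio included 0, at 124 and 121 CPM (log2 ratio 0.04, interval -0.10 to 0.18), and Esr1 was at 40.0 against 27.7 CPM there. Mef2c was at 2.38, 3.00 and 5.51 CPM in clusters 10, 11 and 7. The marker genes of these clusters were lower in the chosen cells than in the cluster they mark, by unequal amounts. Against cluster 10, Cbln2, a synaptic organizer, was at 25.1 and 192 CPM (-2.93), while Hs3st5 (29.2 and 47.3 CPM, -0.70) and Hcrtr2, the second orexin receptor (39.7 and 63.9 CPM, -0.69), were not past 2-fold. Against cluster 11, Adgrl2 (-2.96), Foxa1 (-2.01), Syt2 (-1.78), Proser2 (-1.73) and Rspo3 (-1.25) were past 2-fold lower. Against cluster 7, Tmeff2 (-2.77), Nrp2 (-2.30) and Foxp1 (-2.07) were past 2-fold lower, and Adcy2 was not, at 76.8 and 140 CPM (-0.87).

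Over all clusters, 16 of the 20 highest genes, ranked against these same other cells, stood above the level of the other cells of every cluster. The exceptions were Adcyap1 (37.2 CPM in cluster 13), Galnt18 (66.0 CPM in cluster 12), Tmem108 (72.9 CPM in cluster 14, against 72.4 CPM) and Popdc3 (23.5 CPM in the other cells of cluster 9). Marker sets of other clusters were summed per cell and taken as medians over the chosen cells. They were 0 for those of clusters 1 and 4, against 24.1 and 33.7 CPM over the other cells, and for those of clusters 12, 13 and 14, whose median over the other cells was 0 as well. They were 365 CPM for cluster 5 (Pdyn, Ret and Col25a1) against 183 CPM over the other cells. Most of this sum was Col25a1 (2246 UMIs over the chosen cells, 184 CPM over the other cells), while Pdyn was lower in the chosen cells, at 25.3 against 49.9 CPM. Cluster 11 markers had a median of 98.3 CPM against 37.0 CPM, cluster 7 markers 113 against 75.2 CPM and cluster 8 markers 39.5 against 14.2 CPM. Of the cluster 8 markers only Nr2f2 was higher (64.0 against 17.8 CPM), and Rorb (-0.26) and Wnt4 (-1.62) had log2 ratios below 0. Cluster 10 markers had a median of 83.9 against 44.1 CPM, but as UMIs summed over cells they stood the other way, at 94.0 CPM in the chosen and 106 CPM in the other cells. Those of clusters 2, 3 and 6 were lower, at 17.2, 75.5 and 15.9 CPM against 45.8, 142 and 27.1 CPM.

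The 68 cells of cluster 9 below the limit lay between the chosen cells and all other cells in several of these genes. Cacng5 was at 25.7 CPM, Nxph1 at 138 CPM and Mef2c at 14.2 CPM. Crh was at 7.34 CPM in them and 97.2 CPM in the 91 chosen cells of the cluster, while Tpbg, also a choosing gene, was at 83.1 and 68.0 CPM. In the 9 chosen cells of other clusters and the 91 of cluster 9, Cacng5 was at 78.7 and 88.2 CPM, Mef2c at 5.13 and 39.6 CPM, Ntn1 at 8.55 and 49.6 CPM, and Ramp3 at 8.55 and 48.0 CPM.

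The chosen cells were not uniform, and 1 division among them followed Nr2f2. This gene was singled out after its values were seen. UMIs of Nr2f2 were found in 64 of the chosen cells (17 of 29 in barcode set 1 and 47 of 71 in set 2) and not in 36, with median depths of 62259 and 61519 UMIs per cell and median scores of 2.24 and 2.17. Of the cells with Nr2f2 62 lay in cluster 9 and 2 outside, and of those without 29 lay in it and 7 outside. Over the 100 cells, Pearson's r of log-normalized levels with Nr2f2 reached 0.5 for 16 and -0.5 for 18 of 6924 genes with at least 100 UMIs, with a median of 0.02. These are correlations across cells of 1 table that share depth and run, and they carry no test.

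Rab3b, a synaptic vesicle GTPase, followed Nr2f2 most closely (r = 0.75, n = 100 cells, with 0.86 in set 1 and 0.68 in set 2). It was at 35.1 CPM in the cells with Nr2f2 and 1.37 CPM in those without. Lypd1, a nicotinic receptor modulator of the Ly6 family, was at 235 and 32.5 CPM (r = 0.64), and the long noncoding RNA Rmst at 55.9 and 12.8 CPM (r = 0.57). Pcp4, a calmodulin-binding protein, was at 3073 and 1809 CPM (r = 0.56). Slc17a8 was at 484 and 243 CPM (r = 0.51), against 147 CPM in the cells not chosen, and ran down to 0 among the cells without Nr2f2.

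On the opposite side stood Necab2, a neuronal calcium-binding protein, at 112 CPM with and 350 CPM without Nr2f2 (r = -0.71), Rprm, a cell cycle regulator, at 47.2 and 236 CPM (r = -0.69), Vsnl1, a neuronal calcium sensor, at 172 and 623 CPM (r = -0.69), and Gfra1, a receptor of the GDNF family, at 176 and 308 CPM (r = -0.67). Rspo3 was at 51.7 and 142 CPM (r = -0.62), Col25a1 at 261 and 552 CPM (r = -0.57) and Gad2 at 13.8 and 101.1 CPM (r = -0.47). Within the 91 chosen cells of cluster 9, an alternative added after the data were seen, r of the 24 genes with the 12 highest and 12 lowest r moved by at most 0.05. There Rspo3 was at 49.1 and 146 CPM, Col25a1 at 257 and 587 CPM and Gad2 at 13.6 and 92.0 CPM. In the 68 cells of cluster 9 that were not chosen, and so did not enter this ranking, 12 of the 12 highest had a positive and 12 of the 12 lowest a negative r, with Necab2 at -0.61, Rprm at -0.65 and Lypd1 at 0.52. The pattern was not particular to the chosen cells or to cluster 9. Over all 2250 cells not chosen, each of the 24 genes but Ncald (-0.12) kept the sign of its r. There r was 0.38 for Lypd1, 0.26 for Rab3b, -0.51 for Vsnl1 and -0.18 for Necab2. Among serotonin genes, Tph2 was at 3263 CPM with and 2763 CPM without Nr2f2 (r = 0.34), Slc6a4 at 2535 and 2548 CPM and Fev at 245 and 254 CPM. Of the choosing genes, Maf was at 246 and 248 CPM, Wnt5a at 182 and 176 CPM, Tpbg at 83.0 and 54.9 CPM, Cacna2d3 at 95.3 and 31.6 CPM, Nos1 at 153 and 283 CPM and Crh at 86.3 and 140 CPM. The choice ties these levels together, since a chosen cell low in 1 of these genes had to be high in others. In the 68 cells of cluster 9 not chosen, Nos1 (73.8 and 60.3 CPM) and Crh (14.6 and 3.68 CPM) stood the other way, and Cacna2d3 (52.6 and 18.8 CPM) did not.

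**Figure D4:**
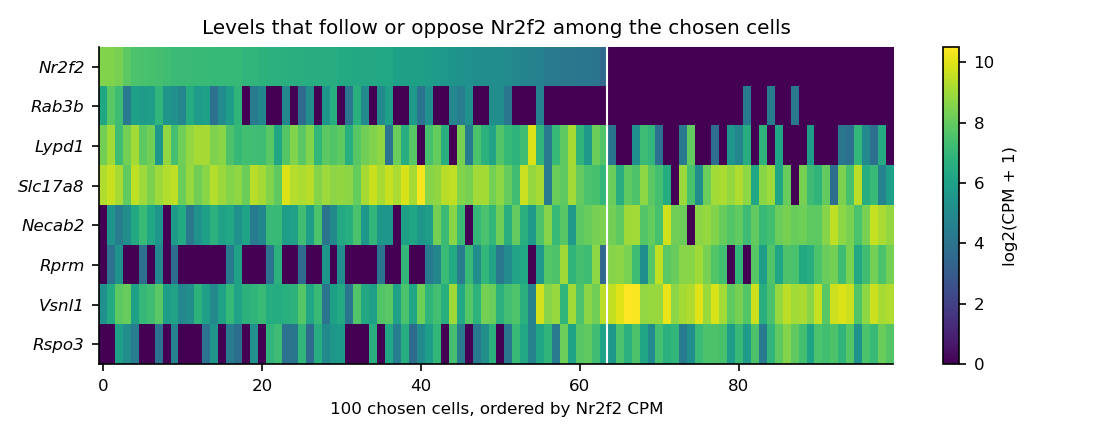
Log2(CPM + 1) of 8 genes (rows) in the 100 chosen cells (columns), ordered by Nr2f2 CPM, with a white line between the 64 cells with a Nr2f2 UMI and the 36 without. Rab3b and Lypd1 are high on the left and Necab2, Rprm, Vsnl1 and Rspo3 on the right, while Slc17a8 is found on both sides, from 19.3 to 1264 CPM on the left and from 0 to 688 CPM on the right.

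The hand-picked cells give the 6 choosing genes and the first 10 of the highest genes by another method, full-length libraries with 756872 to 7664103 reads per cell. Their animals are not named, so each labelled group counts as 1 sample and no test was made. A read was found for 37.4% (34.6 to 40.3) of the 1120 pairs of gene and cell. No group carried the 6 genes as a whole. The median number of the 6 found per cell ran from 1 in Sert_Pet1_dlDR to 3 in Sert_Pet1_vmDR, and only in Npy2r_Pet1_rDR and Crh_Pet1_rDR did a cell have all 6.

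Crh was found in 5 of 8 Crh_Pet1_rDR cells (median 1.44 CPM, highest 378 CPM), in 4 of 9 Sert_Pet1_dmDR cells (highest 133 CPM), in 1 of 9 Npy2r_Pet1_rDR cells (86.7 CPM) and in 1 of 10 P2ry1_Pet1_cDR cells (0.16 CPM). It was not found in the Sert_Pet1_dlDR, Sert_Pet1_vmDR, Sert_Pet1_cDR and Npy2r_Pet1_cDR cells. In Crh_Pet1_rDR the values of cells 1 to 8 were 0, 1.41, 0, 26.4, 44.4, 1.46, 0 and 378 CPM, so that 3 cells labelled by the Crh-cre transgene had no Crh read. Nos1 was found in at most 3 cells of any group. Its highest values were 513 CPM in Sert_Pet1_dmDR cell 1 and 158 CPM in Crh_Pet1_rDR cell 8.

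Both of those cells held most but not all of the genes. Sert_Pet1_dmDR cell 1 had Crh at 133 CPM, Maf at 112 CPM, Wnt5a at 115 CPM, Cacng5 at 238 CPM, Ntn1 at 36.8 CPM and Ramp3 at 77.8 CPM, and no Tpbg, Tmem132c or Adcyap1. Crh_Pet1_rDR cell 8 had Maf at 195 CPM, Cacng5 at 92.3 CPM, Nxph1 at 330.5 CPM and Adcyap1 at 45.9 CPM, with Tpbg at 0.34 CPM and no Tmem132c, Synm or Ntn1. Npy2r_Pet1_rDR cell 3 had all 6 genes, with Nos1 at 64.7 CPM and Crh at 86.7 CPM, and Cacng5 at 33.1 CPM and Tmem132c at 48.3 CPM. Crh_Pet1_rDR cell 7 had Maf at 234 CPM, Tpbg at 310 CPM, Cacna2d3 at 407 CPM and Cacng5 at 340 CPM, but no Crh. These cells were pointed out after their values were seen, and no group was made of them.

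Several of the genes were found in most cells of other groups. Maf was found in 10 of 10 P2ry1_Pet1_cDR cells (4.83 to 112 CPM, median 31.2), as was Cacna2d3 (1.89 to 191 CPM, median 106), and Ramp3 in 8 of them (median 45.2 CPM), while Crh was nearly and Tpbg wholly without reads there. Nxph1 was found in all 10 Npy2r_Pet1_cDR cells (16.6 to 395 CPM, median 114), all 9 Npy2r_Pet1_rDR cells (median 61.2 CPM), 7 of 8 Sert_Pet1_vmDR cells (median 103 CPM) and 6 of 8 Crh_Pet1_rDR cells (median 50.9 CPM). Of Sert_Pet1_dlDR, none of 10 cells had Maf, Tpbg, Crh, Tmem132c or Ramp3. Groups overlapped for each of the 16 genes except Maf, whose lowest value in P2ry1_Pet1_cDR, 4.83 CPM, lay above the highest in Sert_Pet1_dlDR (0) and Sert_Pet1_cDR (0.876 CPM).

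**Figure D5:**
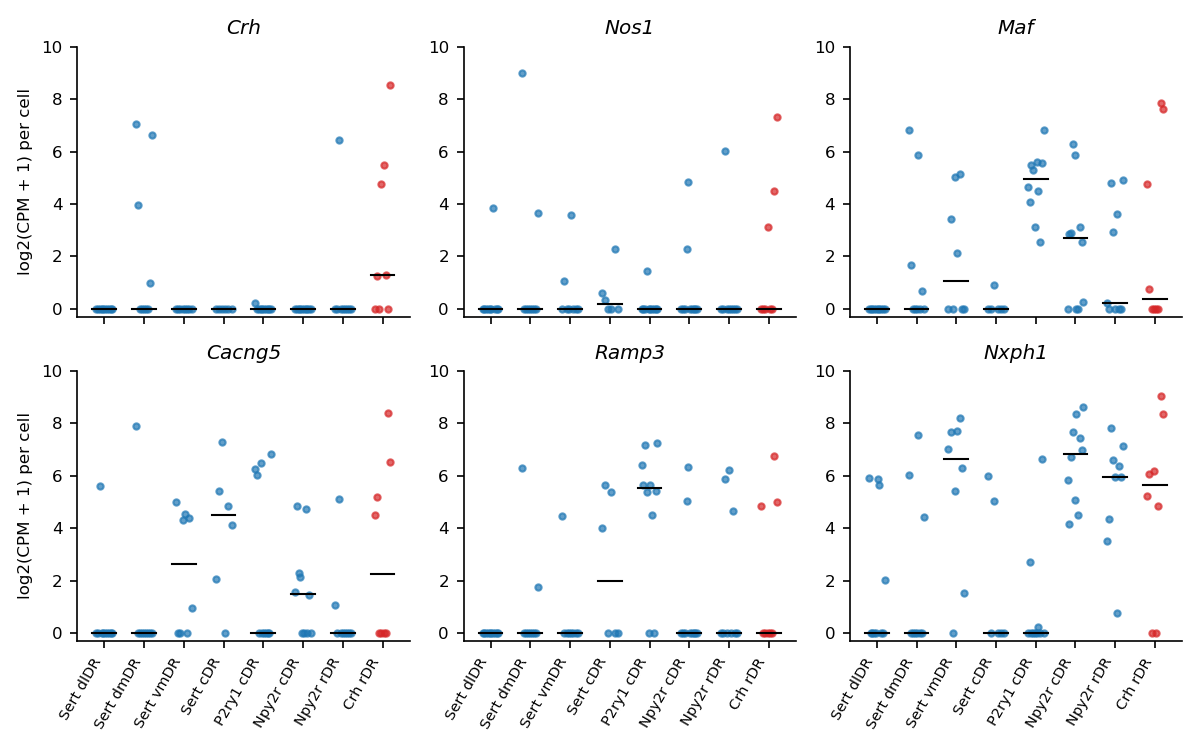
Log2(CPM + 1) per hand-picked cell (points) for 6 genes in the 8 labelled groups, with the group median as a bar and Crh_Pet1_rDR in red. Crh and Nos1 are above 0 in a minority of cells of most groups, with the highest Crh value, 378 CPM, in Crh_Pet1_rDR and the highest Nos1 value, 513 CPM, in Sert_Pet1_dmDR.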

How the data were processed

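Dorsal raphe Pet1 neurons were profiled in 2 pooled 10X runs and as 70 manually sorted cells. Per the labels and methods, the authors deposited UMI counts made with Cell Ranger 3.0.2 (mm10) and filtered in R 3.5.3 (rarely detected genes, cells with few genes, glial markers, low Fev or outlying mitochondrial, ribosomal or total counts), and unfiltered read counts from STAR 2.5.4. These filters removed cells before the choice made here.

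From the deposited counts, the 100 cells with the highest mean z of the 6 genes were taken. The members, gene lists and tests of interest were chosen with earlier results of these data known. UMIs were summed over cells, divided by the total and given per 1000000, with exact Poisson, conditional binomial and Clopper-Pearson intervals (95%). Genes with at least 500 UMIs were compared, and a 2-fold ratio is the only threshold. No test was made, since the cells were chosen on measured values and no label ties the 2 barcode sets to the runs. Named genes are the 20 highest ratios, given 100 UMIs or more over the chosen cells and detection in 25 of them, the 12 lowest among genes with a UMI in at least 25% of the other cells and at least 100 UMIs expected in the chosen cells at the others' level, and members of 18 lists past 2-fold with a few defining ones. Seurat 5.3.0 clustered the cells on 2000 variable genes (resolution 0.9) over components 1 to 50 without 6 and 7, in which barcode set accounted for 47.8% and 19.9% of the variance. Doublets were called with Scrublet in scanpy 1.11.5. Intervals were computed with scipy 1.17.1 in Python 3.11.15. In sums simulated by Poisson draws on 10478 genes, with 4-fold changes planted, 95.6% of the intervals held the true ratio. The draws had no spread between cells, runs or animals, so they speak for counting error only. Alternatives are given at the end. A few genes are not reported here.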

Additional observations from a re-analysis of the deposited data

Results flagged for a closer look

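In 36 of the 112 gene and group pairs of hand-picked cells that had any spread (128 pairs in all), 1 cell lay apart from the others of its group on the log2(CPM + 1) scale by Dixon's criterion. Chance flags about 1 in 20 groups of normally distributed values. The rate for values with many zeros was not measured here. In 20 of the 36 the next cell was at 0, so that any single cell with a read stands apart. Maf was high in a single cell, at 0.876 CPM in Sert_Pet1_cDR. Nos1 was high in 1 cell of each of 7 groups, at 13.6 CPM in Sert_Pet1_dlDR, 513 CPM in Sert_Pet1_dmDR, 11.2 CPM in Sert_Pet1_vmDR, 3.89 CPM in Sert_Pet1_cDR, 1.74 CPM in P2ry1_Pet1_cDR, 27.7 CPM in Npy2r_Pet1_cDR and 64.7 CPM in Npy2r_Pet1_rDR. Wnt5a was high in a single cell, at 99.9 CPM in P2ry1_Pet1_cDR. Wnt5a was low in a single cell, at 0 CPM in Sert_Pet1_vmDR. Tpbg was high in a single cell, at 310 CPM in Crh_Pet1_rDR. Cacna2d3 was low in a single cell, at 1.89 CPM in P2ry1_Pet1_cDR. Crh was high in 1 cell of each of 2 groups, at 0.164 CPM in P2ry1_Pet1_cDR and 86.7 CPM in Npy2r_Pet1_rDR. Mef2c was high in a single cell, at 5.54 CPM in Sert_Pet1_dlDR. Cacng5 was high in 1 cell of each of 3 groups, at 47.6 CPM in Sert_Pet1_dlDR, 238 CPM in Sert_Pet1_dmDR and 33.1 CPM in Npy2r_Pet1_rDR. Tmem132c was high in 1 cell of each of 2 groups, at 17.2 CPM in Sert_Pet1_dmDR and 48.3 CPM in Npy2r_Pet1_rDR. Synm was high in 1 cell of each of 2 groups, at 7.81 CPM in Sert_Pet1_dlDR and 70.9 CPM in P2ry1_Pet1_cDR. Ntn1 was high in 1 cell of each of 2 groups, at 15.6 CPM in Sert_Pet1_dlDR and 29.9 CPM in Sert_Pet1_cDR. Golm1 was high in 1 cell of each of 5 groups, at 3.4 CPM in Sert_Pet1_dlDR, 12.4 CPM in Sert_Pet1_vmDR, 59 CPM in P2ry1_Pet1_cDR, 42.2 CPM in Npy2r_Pet1_cDR and 16.7 CPM in Npy2r_Pet1_rDR. Ramp3 was high in 1 cell of each of 2 groups, at 77.8 CPM in Sert_Pet1_dmDR and 20.9 CPM in Sert_Pet1_vmDR. Nxph1 was high in a single cell, at 98.2 CPM in P2ry1_Pet1_cDR. Adcyap1 was high in 1 cell of each of 4 groups, at 34.6 CPM in Sert_Pet1_dlDR, 33.1 CPM in Sert_Pet1_dmDR, 47.4 CPM in Sert_Pet1_vmDR and 345 CPM in Npy2r_Pet1_rDR. None of the 32 named genes of the 10X cells had opposite directions in the 2 barcode sets.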

How the results depend on the processing

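None of the 32 named ratios changed direction under the 19 alternatives, and 102 of 604 values left the interval of the main ratio. The 12 lowest ratios, but none of the 20 highest, moved by over 1.5 times under at least 1 alternative, most of all Gad1, from -5.65 to -1.98. A further 4 values (Prkcq, Gad1, Gpc3 and Zar1 in barcode set 1) had no UMI and so no ratio. Counts at least 2-fold higher ran from 124 to 220 and lower from 238 to 432 in 17 and 16 alternatives, but 464 were lower in barcode set 1 alone. A minimum of 100 UMIs gave 292 higher and 774 lower, and 2000 UMIs gave 54 and 133, by construction of the genes tested. At resolution 0.7 the main cluster held 82.0% of the chosen cells (the cause was not tested). In the manually sorted cells, 31.6% of gene and cell pairs had at least 10 reads. Alternative scores shared 80 to 95 of the 100 cells, lowest without Cacna2d3. Using only the chosen cells of cluster 9 was added after the data were seen. No paired analysis was possible between samples because the 10X cells count as 1 pooled sample and replicate numbers of single cells pair nothing. Each of the 2 barcode sets holds both chosen and other cells, and the ratios within each set are given as a description without a test. With 100 cells, genes under about 1 CPM rest on a few UMIs.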
